A study of Drosophila melanogaster with 3 samples.

Results

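The genes described are the 48 protein-coding members of the Drosophila melanogaster proteasome family, out of 13986 protein-coding genes in the annotation. They were taken by symbol, as the genes named Rpn or Rpt with a number, Prosalpha or Prosbeta. Of the 48, 32 are standard subunits of the particle (14 of the core, 10 of the base and 8 of the lid). The other 16 are paralogs, marked by a T or an R after the subunit number. The measurement was chromatin immunoprecipitation with sequencing (ChIP-seq) of Slou, a homeodomain transcription factor, carried as a C-terminal eGFP fusion by a transgenic line and precipitated with an antibody against GFP. The material was whole embryos, males and females pooled, collected over 0 to 24 h, so each library mixes all embryonic stages and tissues, and cells with and without Slou. The 3 samples are biological replicates of 1 group, and no control library was analysed here. A binding signal cannot be checked against markers of a tissue, and none was assigned to one.

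The proteasome degrades proteins that carry ubiquitin. Its core is a barrel of alpha rings, which form the gate, and beta rings, some of whose subunits hold the proteolytic sites. The base unfolds substrates with a ring of ATPases (the Rpt subunits) and carries scaffolds and ubiquitin receptors, while the lid removes ubiquitin and is built around the deubiquitinase Rpn11. The standard subunits are needed in all cells, whereas many of the paralogs are known from the testis of the fly. Standard subunit genes are a textbook housekeeping group, and fly housekeeping promoters often carry the DRE, a short element read by the factor Dref.

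A gene was counted as bound when the summit of a peak in the authors' reproducible (optimal) list lay in the gene body or within 1 kb upstream. That list held 2743 peaks. They were the highest-scoring of the 30000 peaks the authors called on the replicates pooled, so a pooled rank of 2743 or better and a bound call are the same thing. Rank 1 is the highest score, and the score is the authors' own value on a scale no source used here states. All coordinates are dm6 and 1-based. Bound means only that such a peak was listed: whether signal at housekeeping promoters such as these would also appear in a precipitation without Slou-eGFP was not tested.

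Of the 48 members, 9 were bound (18.8%), against 2748 of 13986 protein-coding genes (19.6%). The share of the members was close to that of all genes, so the count over the whole family is not a result about the family. All 9 were standard subunits, which makes 9 of 32 (28.1%), and 0 of the 16 paralogs was bound. Within the particle, 5 of 8 lid genes were bound (62.5%), 3 of 14 core genes (21.4%) and 1 of 10 base genes (10%). The bound lid genes were Rpn3, Rpn5, Rpn6, Rpn8 and Rpn11. The gene of another lid subunit, Sem1, lies outside the symbol pattern and these counts, and was not bound. The bound core genes were Prosalpha3, Prosbeta1 and Prosbeta2, and the bound base gene was Rpn13. None of the 6 ATPase genes Rpt1 to Rpt6 was bound. The lists are short, and these counts are descriptions without a test.

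The sequences at the bound genes are shown because many of them hold the same short word. The DRE word TATCGATA was searched on both strands, and it reads the same on either. It lay within 50 bp of the highest summit for 4 of the 9 bound members (44.4%), namely Prosalpha3, Prosbeta1, Rpn3 and Rpn11. It was there for 76 of all 2743 optimal summits (2.77%), and for 71 of the 1538 optimal summits that lie within 500 bp of a transcription start (4.62%). Over the whole peak, the word was present in 6 of the 9 members' peaks (66.7%), against 218 of 2743 peaks (7.95%), with Prosbeta2 and Rpn13 as the additional genes. In the sequences below, capitals mark TATCGATA and the homeodomain core word TAATTA, which is also the same on both strands; no other word is marked. Each is printed 5′ to 3′ on the strand of the member, from RefSeq's Release 6 genome, which is the dm6 build, and stretches that the annotation gives as untranslated region of any gene were left out, apart from a 30-base site. The first is the window around the Rpn11 summit (chr2L:5060037-5060237, minus strand), which holds the DRE word 2 times. The second is the DRE site beside the Rpn3 summit (chr2L:19051582-19051611, plus strand), within the 5′ end of the neighbouring gene l(2)37Bb. The third is the stretch before the start of Prosbeta2 (chr3L:14999701-14999950, plus strand), the highest-ranked bound core gene.
Rpn11 summit: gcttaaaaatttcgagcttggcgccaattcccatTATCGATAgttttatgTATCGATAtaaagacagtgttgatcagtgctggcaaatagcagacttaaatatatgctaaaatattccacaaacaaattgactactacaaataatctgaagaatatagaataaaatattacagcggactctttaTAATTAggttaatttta
Rpn3 DRE site: tgttatcggagTATCGATAtcgaaaaggct
Prosbeta2 promoter: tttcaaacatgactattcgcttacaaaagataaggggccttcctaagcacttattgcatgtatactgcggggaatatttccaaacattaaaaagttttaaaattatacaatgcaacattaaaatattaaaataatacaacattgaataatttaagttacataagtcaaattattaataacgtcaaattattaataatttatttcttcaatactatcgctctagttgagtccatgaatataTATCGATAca

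Rpn5, the highest-ranked bound lid gene, is shown as the contrasting case. The first of its sequences is the part of its summit window at chr3R:5789151-5789328 (plus strand), which lies in the body of Hat1. It was the only one of the 9 summits with TAATTA within 50 bp, which is 11.1%, against 297 of 2743 optimal summits (10.8%). The second is the stretch between the starts of Hat1 and Rpn5 (chr3R:5789385-5789492, plus strand), which has neither word. The promoter of Prosbeta2R1 (chrX:5808704-5808953, plus strand), an unbound paralog of Prosbeta2, is shown beside that of Prosbeta2 because it has neither word.
Rpn5 summit: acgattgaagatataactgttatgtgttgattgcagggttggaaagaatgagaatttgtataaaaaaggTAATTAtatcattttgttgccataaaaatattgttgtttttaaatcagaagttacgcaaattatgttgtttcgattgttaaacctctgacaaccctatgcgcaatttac
Rpn5 promoter: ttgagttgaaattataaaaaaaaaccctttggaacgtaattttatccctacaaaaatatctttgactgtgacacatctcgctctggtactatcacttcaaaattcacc
Prosbeta2R1 promoter: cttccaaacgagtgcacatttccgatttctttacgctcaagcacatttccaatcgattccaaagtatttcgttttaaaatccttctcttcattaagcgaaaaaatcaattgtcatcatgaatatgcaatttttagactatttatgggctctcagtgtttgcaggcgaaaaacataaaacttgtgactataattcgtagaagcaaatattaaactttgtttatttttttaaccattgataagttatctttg

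In promoters, taken as 250 bases before to 50 after the gene's start, the DRE word was in 12 of the 32 standard subunit genes (37.5%). It was in 0 of the 16 paralog promoters, and in 1307 of 13968 promoters of protein-coding genes (9.36%). Core, base and lid promoters held it in 6 of 14, 2 of 10 and 4 of 8 genes. Among all bound protein-coding genes, 380 of 2748 had the word in the promoter (13.8%). Of the 9 bound standard subunits, 5 had it in the promoter (55.6%), and of the 23 that were not bound 7 had it (30.4%). The bound ones were Prosalpha3, Prosbeta1, Prosbeta2, Rpn3 and Rpn13. The unbound ones were Prosalpha5, Prosalpha6, Prosbeta6, Rpn7, Rpn9, Rpn12 and Rpt5. The word was thus neither in every bound promoter nor absent from the unbound ones. Read the other way, 5 of the 12 standard subunits with the word were bound (41.7%) and 4 of the 20 without it (20%), while over all protein-coding genes 29.1% of 1307 with the word were bound and 18.7% of 12661 without it. The promoter window does not always cover the bound site. Rpn11, counted here as without the word, has it 47 bp from its summit, farther upstream than the window reaches. The Rpn6 and Rpn8 summits lie 483 and 2695 bp inside the 5′ end from which the window was taken. The peaks of Rpn5, Rpn6 and Rpn8 held no DRE word. A match to a word is a description of the sequence, and whether Dref or Slou occupies these sites was not tested.

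**Figure D1:**
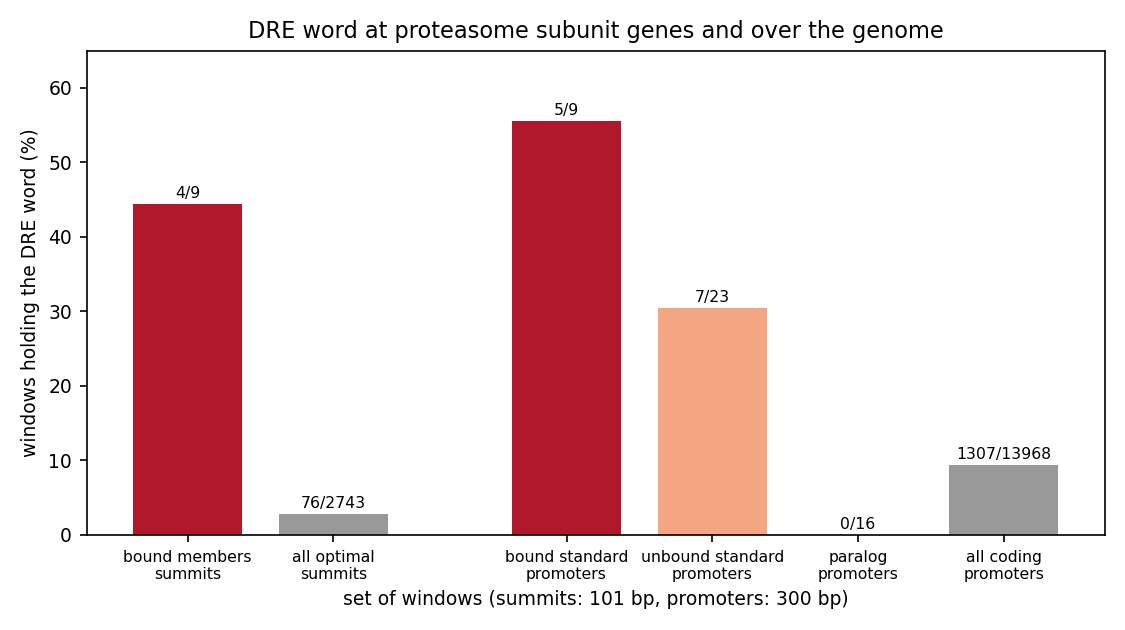
Bars give the percentage of windows that hold the DRE word, with the number of windows above each; red and orange are standard proteasome subunits, the empty position is the paralogs and grey is the genome-wide set. The word is at 4 of 9 summits of bound members against 2.77% of all optimal summits, and in 5 of 9 bound and 7 of 23 unbound standard promoters against 9.36% of all protein-coding promoters. The share was 13.8% for promoters of all bound protein-coding genes, which are not drawn.

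Among the lid genes, Rpn5, a scaffold subunit of the lid, had the highest-ranked peak of the family. Its peak at chr3R:5789056-5789445 ranked 844 of 30000 in the pooled list with a score of 173, and ranked 400, 659 and 2219 in replicates 1, 2 and 3. Replicate 3 placed it lower than the other 2, but within the first 2743 in each. The summit had an offset of -242 bp from the nearest start of Rpn5, negative meaning upstream in the gene's direction. The start of the histone acetyltransferase gene Hat1, on the other strand, was nearer at 133 bp.

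Rpn3, another scaffold subunit, had 2 overlapping optimal peaks. The higher, at chr2L:19051429-19051818, ranked 879 with a score of 169.7, and its summit had an offset of -166 bp and lay 12 bp from the start of the divergent gene l(2)37Bb. The second, at chr2L:19051631-19052020, ranked 1348 with a score of 137, and its summit lay at 36 bp inside the 5′ untranslated region of Rpn3, with Rpn3's own start nearest. Both matched the same replicate peak, which ranked 1238, 688 and 1038 in replicates 1, 2 and 3. All 3 replicates therefore held the Rpn3 signal within the first 2743 peaks. In the Rpn3 window, the gene body and 1 kb upstream, 66 of the 2843 50-base words (2.32%) were repeated in the genome. Where in the window these words lie was not recorded.

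Rpn6, known in yeast as a contact between lid and core, had the most even ranks. Its peak at chr2R:14752232-14752621 ranked 898 in the pooled list with a score of 168, and 883, 908 and 896 in replicates 1, 2 and 3. The summit lay in an intron of the Rpn6 gene model, 483 bp inside its 5′ end, but with an offset of -156 bp from an internal start. The start of ave, on the other strand, was 94 bp away.

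Rpn11, the deubiquitinase of the lid, was also even across replicates. Its peak at chr2L:5059942-5060331 ranked 1411 with a score of 134, and 1385, 1438 and 1584 in replicates 1, 2 and 3. Its offset of -347 bp was the farthest of the 9, and its own start was nearest. Rpn8, the partner of Rpn11 in the lid, had the lowest-ranked of the bound peaks, at chr2R:24402528-24402917. It ranked 2291 with a score of 103, and 1797, 2179 and 3133 in replicates 1, 2 and 3. Replicate 3 placed it outside the first 2743. The Rpn8 summit lay in an intron, 2695 bp inside the 5′ end of the gene model and at -282 bp from an internal start, with the start of the kinase gene Slik 43 bp away on the other strand.

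Among the core genes, Prosbeta2, which carries the trypsin-like site, ranked highest. Its peak at chr3L:14999587-14999976 ranked 933 with a score of 166, and 1392, 1134 and 778 in replicates 1, 2 and 3. The offset was -169 bp, and the start of the mitochondrial ribosomal protein gene mRpL39 was nearer at 116 bp. Prosalpha3, a subunit of the outer ring, had its peak at chr2R:20994658-20995047, with a rank of 1007 and a score of 159. It ranked 1828, 648 and 1536 in replicates 1, 2 and 3, and its offset of -47 bp was the shortest of the 9. Both genes were within the first 2743 peaks in all 3 replicates. Prosbeta1, which carries the caspase-like site, had its peak at chr2R:16014693-16015082 with a rank of 1867 and a score of 116. It ranked 1942, 2817 and 1929, so replicate 2 placed it just outside. Its offset was -101 bp, and the start of the exosome gene Rrp42 was 20 bp from the summit.

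The single bound base gene was Rpn13, a ubiquitin receptor. Its peak at chr2R:13960327-13960716 ranked 1209 with a score of 145, and 3617, 1226 and 1296 in replicates 1, 2 and 3. Replicate 1 placed it outside the first 2743 peaks and the other 2 well inside. Its summit lay at -118 bp, nearest its own start, and 153 bp from the start of the cathepsin gene CtsL1.

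**Figure D2:**
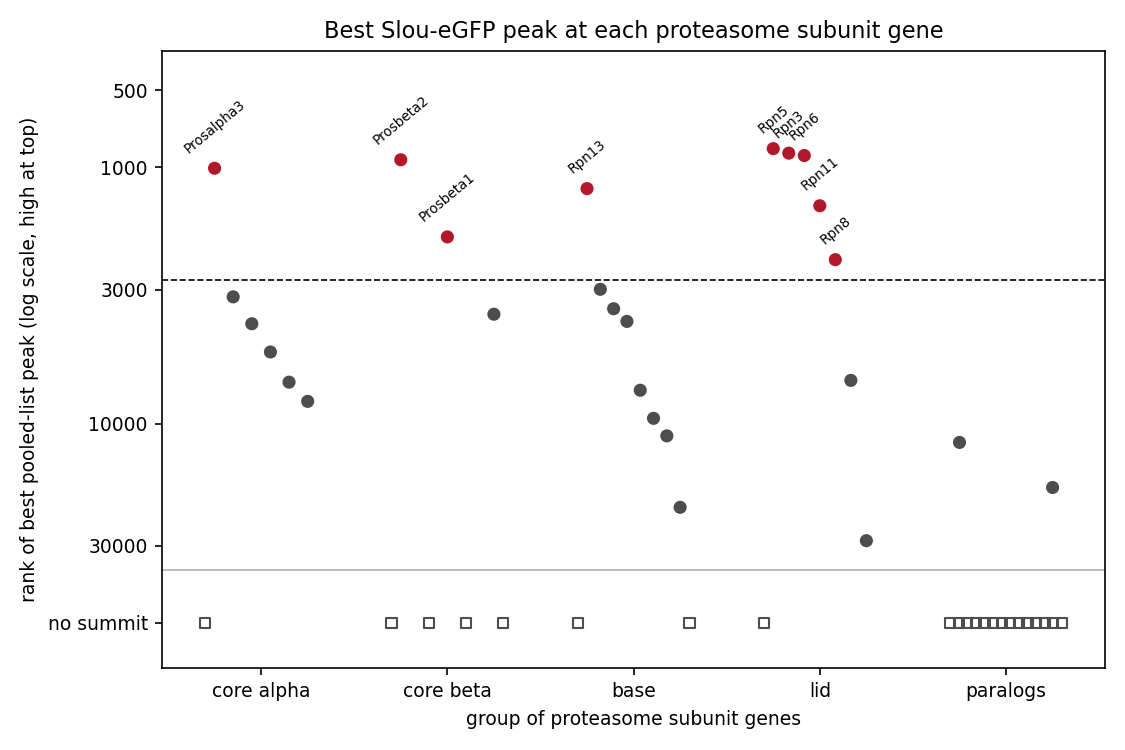
Each point is 1 gene, placed by the rank of its best peak in the pooled list on a log axis with high ranks at the top; red points with names are bound, the dashed line is rank 2743 and squares are genes with no pooled-list summit. The 5 bound lid genes rank 844 to 2291, and 14 of the 16 paralogs sit in the bottom row.

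The genes outside the optimal list ranged from ranks close to its end, through lower ranks, to no pooled-list summit. Rpn10, another ubiquitin receptor of the base, was the nearest outside. Its peak at chr3L:21536851-21537240 ranked 2991 with a score of 87.0 and an offset of -20 bp. It ranked 2445, 3561 and 4032 in replicates 1, 2 and 3, so replicate 1 alone placed it inside. Rpn8 at 2291 was the member just inside the list.

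Prosalpha2, of the alpha ring, ranked 3201 (chr3R:12431046-12431435, score 83.3, offset -80 bp), and 2997, 4629 and 3267 in replicates 1, 2 and 3. Rpt5 had the highest rank of the ATPase genes at 3562 (chr3R:23752639-23753028, score 78.4, offset -42 bp), and 5627, 3175 and 6469 in the replicates, with its summit at the start of RanBP3. Neither reached the first 2743 in any replicate. Prosbeta3, of the beta ring, ranked 3742 (chr3R:9006158-9006547, score 76.1, offset -127 bp), and 14200, 4207 and 2643 in replicates 1, 2 and 3. Rpn2, a scaffold of the base, ranked 3992 (chr3R:29153317-29153706, score 73.0, offset -12 bp), and 6431, 12888 and 2440. For Prosbeta3 and Rpn2, replicate 3 alone placed the peak inside, and replicates 1 and 2 placed it outside. Prosalpha4 ranked 4077 (chrX:16275771-16276160, score 72.2, offset -304 bp), and 4960, 3487 and 11028 in the replicates, with the start of kat80 nearer. Prosalpha7 ranked 5255 (chr2R:9847691-9848080, score 62.3, offset -50 bp), and 4717, 8840 and 9021. These 2 alpha ring genes were outside the first 2743 in all 3 replicates. Read to 5486 pooled-list peaks, which is 2 times the optimal length, these 7 genes joined the 9 bound ones and 16 members lay inside, against 30.7% of all protein-coding genes.

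**Figure D3:**
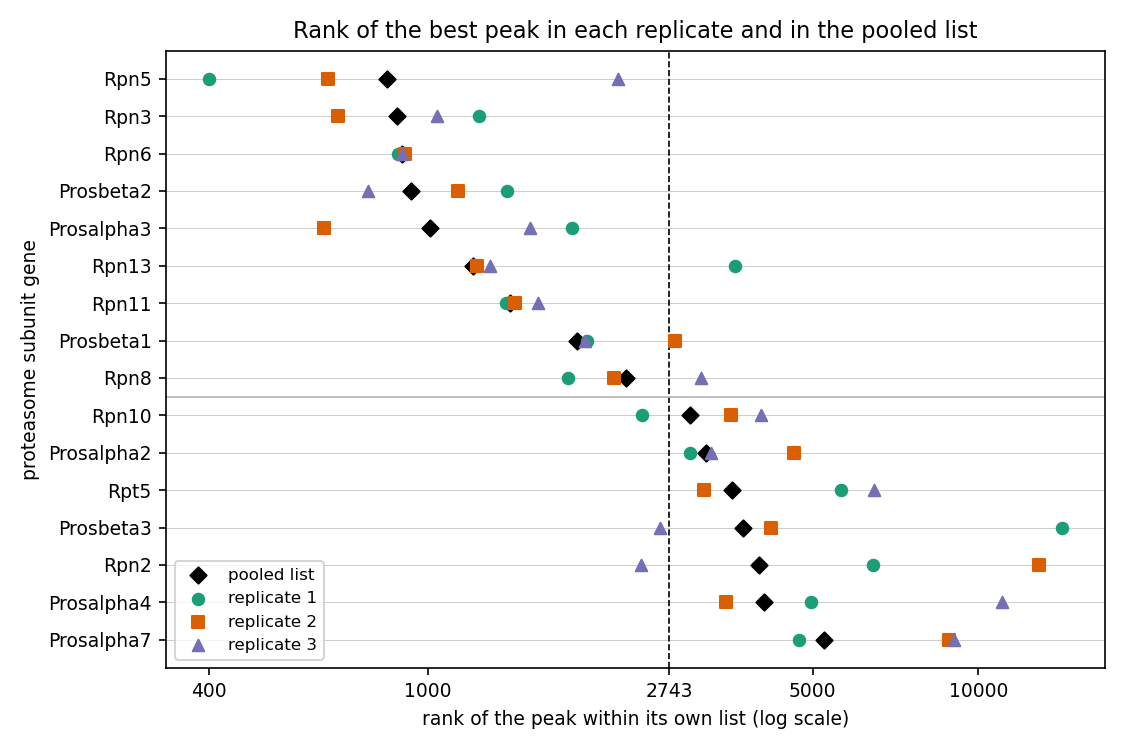
The rank of the best peak is plotted on a log axis for the 9 bound members and the 7 next ones, with a marker for the pooled list and one for each replicate; the dashed line is rank 2743. Rpn5, Rpn3, Rpn6, Prosbeta2, Prosalpha3 and Rpn11 have all 3 replicate markers left of the line, and no member below the grey line does.

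A further 8 standard subunits had a pooled-list peak of lower rank. Rpn12, a lid subunit, ranked 6786 (chr3L:16582643-16583032, score 54.5, offset -190 bp), and 9556 and 7275 in replicates 1 and 3. Prosalpha6 ranked 6893 (chr2L:10221067-10221456, score 54.0, offset -89 bp), and 8790 and 4887 in replicates 1 and 2. Prosalpha5 ranked 8194 (chr2R:17412405-17412794, score 49.6, offset -167 bp), and 17315 and 14443 in replicates 1 and 3. Each of these 3 was without a matching peak in the remaining replicate, although replicate 3 listed another summit in the Prosalpha6 window, at 27107.

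The other ATPase genes with a peak stood lower than Rpt5. Rpt4 ranked 7413 (chrX:6291065-6291454, score 52.0, offset -15 bp), and 8149, 7683 and 13259 in replicates 1, 2 and 3. Rpt6 ranked 9545 (chrX:21315584-21315973, score 46.4, offset -273 bp), and 9900, 13690 and 26029. Rpt1 ranked 11175 (chr2R:7654255-7654644, score 43.4, offset -496 bp), and 22099 and 7030 in replicates 1 and 2. All were far outside the optimal list in each replicate that held them. Rpt2 ranked 21250 (chr3R:23931325-23931714, score 33.2, offset 38 bp), with a match in replicate 1 alone at 16410. Rpn9, a lid scaffold subunit, ranked 28682 (chr3R:23733053-23733442, score 28.8, offset 214 bp), with a match in replicate 3 alone at 27511, near the end of the lists. Elsewhere in the Rpn9 window, replicates 1 and 2 listed summits at 17649 and 25270.

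The last 8 standard subunits had no pooled-list summit in their window. They were Prosalpha1, Prosbeta4, Prosbeta5 (the chymotrypsin-like site), Prosbeta6, Prosbeta7, the base scaffold Rpn1, the ATPase Rpt3 and the lid subunit Rpn7. Single replicates listed a summit at 8001 for Rpn1, 16162 for Prosbeta7 and 28351 for Rpn7, all in replicate 1, and Prosbeta5 was at 10350 in replicate 1 and 12433 in replicate 3. The 7 core beta genes thus divided into 2 bound genes, 1 with a lower peak and 4 with none, whereas 6 of the 7 core alpha genes had a pooled-list peak of some rank.

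The absence of a call is uncertain for Prosalpha1 and its paralog Prosalpha1R. All 2327 50-base words of the Prosalpha1 window and all 2310 of the Prosalpha1R window occur more than once in the genome (100% of each), so reads from the copies could not be told apart by sequence. No other member had more than 2.32% repeated words.

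Few paralogs were in the pooled list, and the lists do not measure signal outside their peaks. Only Prosbeta5R2, ranked 11854 (score 42.3, offset -489 bp), and Rpt3R, ranked 17775 (score 35.7, offset 272 bp, in coding sequence), had a pooled-list summit. Prosbeta5R2 was matched in replicate 3 alone, at 19254, and Rpt3R in replicates 1 and 2, at 10945 and 18288. Of the 14 with no pooled-list summit, 5 had a summit in 1 replicate list each, at rank 14454 for Rpt6R and 24192 for Rpt4R in replicate 3, 20992 for Prosbeta2R2 in replicate 1, and 19957 for Prosalpha4T1 and 28420 for Prosalpha3T in replicate 2. The other paralogs, Prosalpha1R, Prosalpha4T2, Prosalpha6T, Prosbeta2R1, Prosbeta4R1, Prosbeta4R2, Prosbeta5R1, Rpn12R and Rpn13R, had none in any list.

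Counted over the whole pooled list, 26 of the 48 members had a summit in the window (54.2%), against 63.1% of all protein-coding genes. The share was 75% of the 32 standard subunits and 12.5% of the 16 paralogs. Among genes with such a summit, 9 of 26 members were bound (34.6%) and 37.5% of the 24 standard subunits, against 31.1% of all genes. The median best pooled rank was 3867 for the members with a summit and 5796.5 for all genes with one. By class the medians were 1411 for the lid, 3742 for the core, 5702.5 for the base and 14814.5 for the 2 paralogs. The windows also differed in size. Median gene length was 1984.5 bp for lid, 1717 bp for base and 1201 bp for core genes, and 1282 bp for paralogs, against 2162.5 bp over all genes. The part of window size in the class counts was not tested.

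Each replicate list was also read on its own, to its 2743 highest-scoring peaks. The members bound were 9, 8 and 10 in replicates 1, 2 and 3, a mean of 9 ± 1 (SD, n = 3) or 18.8% ± 2.08 of the 48. The share of all protein-coding genes was 19.0%, 19.9% and 19.3%, a mean of 19.4% ± 0.425 (SD, n = 3). The members' share thus lay within its replicate spread of the share of all genes. Lid genes bound were 5, 5 and 4, core genes 3, 2 and 4, base genes 1, 1 and 2, and paralogs 0 in each. The lid count was higher than the core and base counts in replicates 1 and 2, and equal to the core count in replicate 3. These counts are out of 8 lid, 14 core and 10 base genes, so equal counts are not equal shares. Bound in all 3 replicates were 6 members, Prosalpha3, Prosbeta2, Rpn3, Rpn5, Rpn6 and Rpn11, and 12 were bound in at least 1. The share of all protein-coding genes was not computed for either count, so neither is a result about the family. With optimal peaks matched in all 3 replicates, the same 6 of 48 members were bound, against 1820 of 13986 protein-coding genes.

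The summits at the bound genes lay upstream of the starts and mostly beside a neighbour's start. The offset from the nearest own start had a median of -166 bp over the 9 bound members, with a range of -347 to -47 bp. For all bound genes the median was -129 bp. All 9 lay in the 500 bp before the start, against 67.0% of all bound genes. Read from the replicate lists, the members' median was -159, -136.5 and -119.5 bp in replicates 1, 2 and 3 (mean -138 ± 19.8 bp, SD, n = 3).

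For each of the 9, the nearest start of another gene was on the opposite strand, and for 8 of 9 the summit lay between the pair of starts. Rpn5 was the exception, with the start of Hat1 between its summit and its own start. The share over all bound genes was not computed for either count, so neither is set against a background. The neighbour's start was nearer than the member's own for 6 of the 9 (66.7%), against 33.2% of all bound genes. The summits of all 9 also lay in the window of 1 other gene, against 62.1% of all bound genes, so a bound call here does not separate the member from its neighbour. Where the gene's own start had to be nearest, 4 members stayed bound (Prosalpha3, Rpn3 by its second peak, Rpn11 and Rpn13), against 13.7% of all genes. With the summit required within 500 bp of a start of the gene, 9 members were bound, against 15.1% of all genes.

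**Figure D4:**
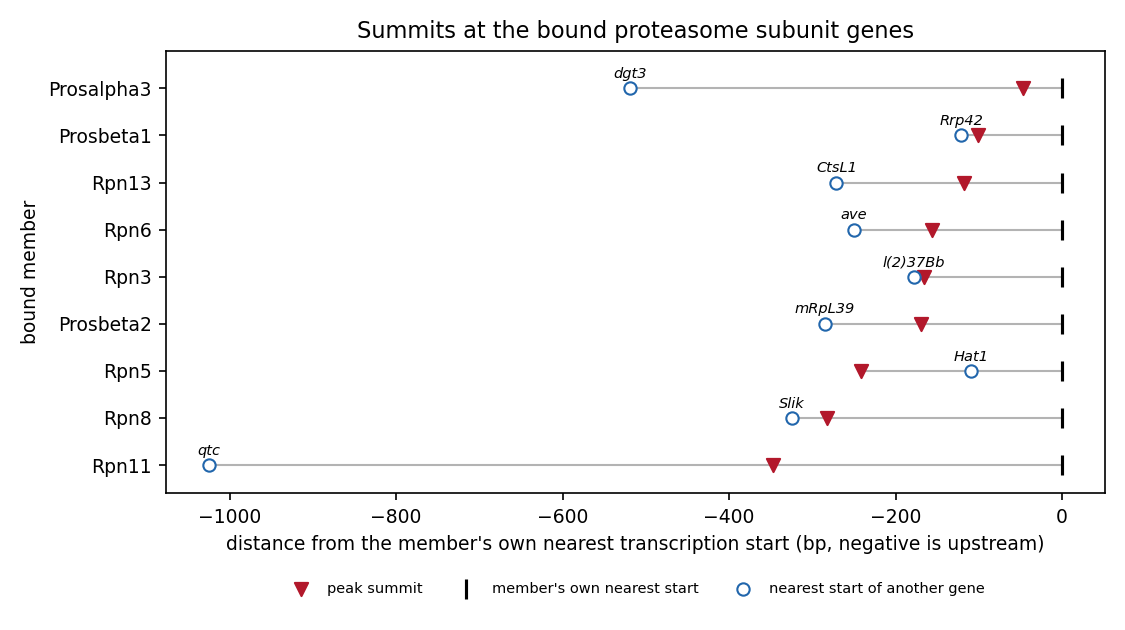
For each bound member, the red triangle is the summit, the bar at 0 the member's own nearest transcription start and the circle the nearest start of another gene, on an axis of distance in bp from the member's start with negative values upstream. The summits lie at -347 to -47 bp, and 8 of 9 lie between the 2 starts. The share of all bound genes with such a summit was not computed.

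Head-to-head arrangements were also counted over all members, here from the 5′ end of the gene model and not from the nearest start. A start of another gene on the opposite strand lay within 1 kb of that end for 19 of the 32 standard subunits (59.4%) and 4 of the 16 paralogs (25%), against 35.4% of all protein-coding genes. Of the 19 divergent standard subunits 6 were bound (31.6%), against 33.1% of all divergent genes. Of the 13 others 3 were bound (23.1%), against 12.3% of all other genes. These 3 were Rpn6, Rpn8 and Rpn11, whose neighbours on the opposite strand started at -250, -325 and -1025 bp from the member's nearest start, so Rpn6 and Rpn8 would count as divergent from that start. By class, 10 of 14 core genes were divergent and 3 of those 10 were bound, and 6 of 10 base genes were divergent and 1 of those was bound. Of the 8 lid genes 3 were divergent, with 2 of those bound, and the 3 genes just named were bound among the 5 others.

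The other genes of the ubiquitin and proteasome pathway were read from a list of 30. Of these 13 were bound (43.3%), against 19.6% of all protein-coding genes. The list was chosen with earlier results of these data known, so its share is a description and not a result about the pathway. Among genes that make, activate or attach ubiquitin, 4 of 6 were bound. They were the ubiquitin genes RpS27A at rank 630 and Ubi-p63E at rank 2328, the activating enzyme gene Uba1 at rank 1508 and the conjugating enzyme gene eff at rank 492. Of 13 assembly factors and associated proteins, 4 were bound. The proteasome maturation factor gene Pomp ranked 522 (score 212, offset -210 bp), and 1811, 446 and 440 in replicates 1, 2 and 3, ahead of every subunit gene in the pooled list. The others were CG12321 at 504, whose nearest start was that of MED17, the activator gene REG at 1776 and ntc at 1869. Sem1, a small lid subunit that the symbol pattern does not cover, was not bound and ranked 25585.

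Of 5 genes of the unfoldase that works with the proteasome, 2 were bound: TER94, the ATPase itself, at rank 1500 and its partner Faf2 at rank 312. The other 3 were not bound, with the cofactor genes Npl4 at 3596, p47 at 4076 and Ufd1 at 8235. Of 6 genes for regulators, 3 were bound. Keap1, the inhibitor of Cnc, ranked 222 with kuk nearest. Dref, which binds the DRE, ranked 2170 with the start of RpL13 nearest, and M1BP, which binds another housekeeping promoter word, ranked 1650 with CG8202 nearest. The gene for Cnc, the activator of proteasome genes under stress, ranked 2808, just outside the list, and 3452, 2616 and 4171 in replicates 1, 2 and 3. The calls at Keap1, M1BP and Dref share the limit described above, that the summit was nearer to another gene's start.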

How the data were processed

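ChIP-seq peak lists of 3 biological replicates, of the replicates pooled and of an optimal list (2743 peaks) were used, all for dm6; the dm3 lists were not used. The README files deposited with the lists name a control alignment for the calling. Names of the aligner and peak caller were not given in the sources used here, and the authors' peak score served for ranking only. The −log10 q that the authors deposited was between 2.73 and 3.03 for the bound members' highest peaks and was only described. The deposited summit offset gave each summit position. The files used hold no read counts, so depth is unknown. Gene models were Ensembl release 115 (BDGP 6.54). The summit was the middle of the interval at all 26 members with a pooled-list peak.

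A replicate rank belongs to the highest-scoring replicate peak overlapping the pooled peak by at least 1 bp; where no pooled peak was present, ranks are those of summits in the gene's window. Scripts used Python 3.11.15, pandas 2.3.3, numpy 2.4.6 and scipy 1.17.1, and were tested on simulated data. No test was made, since there is 1 group. The members, class lists, pathway list, sequence words and alternatives were chosen with earlier results of these data known. Every member is named, with full values for the bound and the unbound standard subunits. The summit windows of Rpn11, Rpn3 and Rpn5, the whole-peak DRE counts and the split by DRE were chosen after values were seen. In the pathway list of 31 symbols, Ddi1 and rngo are 1 gene, and Ufd1-like was matched as Ufd1.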

Additional observations from a re-analysis of the deposited data

How the results depend on the processing

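No paired analysis was possible because all 3 samples belong to 1 group. Of 82 values under alternatives, 65 stayed within 1.5 times the main count or within the replicate spread, 17 moved and 0 reversed. The tally is not of separate values: members and standard subunits had the same count under every alternative, since no paralog was bound. A fall from 9 to 6 members was counted as within the limit. With the gene's own start required to be nearest, members and standard subunits bound fell to 4 each, core to 1 and lid to 2, and the median offset was -82.5 bp. With pooled-list peaks to 2 times the optimal length (chosen after seeing the data), members and standard subunits rose to 16 each, core to 7 and base to 4, against 30.7% of all genes, while the lid stayed at 5 and paralogs at 0. The higher-scoring 1371 optimal peaks left 3 lid genes, with 11.5% of all genes bound. The 1 base gene, Rpn13, was lost with peaks matched in all 3 replicates (0). The base count ranged from 0 to 1 when each replicate in turn was left out of this matching. Rpn13 was lost with replicate 2 or 3 left out, since replicate 1, where it ranked 3617, then had to match. It stayed with replicate 1 left out. The optimal list itself was not called again without a replicate. Measured from the 5′ end of the gene model, the median offset was -118 bp. Replicate lists of 1371 and 5486 peaks gave a mean of 4.33 and 13.7 members, with 10.8% to 11.8% and 29.8% to 30.4% of all genes bound. Among genes with a pooled-list summit, 31.1% of all genes were bound. Paralogs were at 0 under every alternative. Many alternatives only narrow the rule or remove peaks, so their 0 was fixed beforehand, and these are among the 65 that stayed. The upstream window of 2 kb, the interval overlap and the longer pooled list could have raised the paralog count. Depth is unknown, and lists with few genes move by large factors with 1 gene.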

Other observations

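Besides the DRE, 6 words were searched on both strands, with overlaps allowed. TATAAA, the TATA box word, was in 13 of 32 standard subunit promoters (40.6%) and 5 of 16 paralog promoters, against 45.8% of all protein-coding promoters. At summits it was within 50 bp for 4 of the 9 bound members, against 22.6% of all optimal summits; at Rpn11 it overlaps a DRE word.

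GGTCACAC, the word of motif 1 that M1BP reads, was in 5 of 32 standard subunit promoters (15.6%), against 7.69% of all. The 5 were Prosalpha2, Prosalpha4, Prosbeta3, Rpn1 and Rpn7, all among the 23 of 32 standard subunits that were not bound. TGACNNNGC, the antioxidant response element of Cnc, was also in 5 of 32 (Prosalpha2, Prosbeta3, Rpn1, Rpn7 and Rpt6), against 8.62% of all, and these were not bound either. Prosalpha2, Prosbeta3, Rpn1 and Rpn7 are in both lists, so the lists are not separate observations. The share bound among all genes with either word was not computed. TAATTA was in 3 of 32 (9.38%), against 20.4%. CAGCTG was in 1 of 32 and GAGAGA in 0 of 32, against 17.6% and 12.3% of all promoters.

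Base composition was similar at the summits. The A and T share within 50 bp of the summit was 65.5% ± 9.57 over the 9 bound members (SD over summits) and 66.7% ± 8.68 over all optimal summits. In promoters it averaged 65.4% for standard subunits and 64.3% for paralogs, against 60.9% for all protein-coding genes.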
